A study of Mus musculus with 7 samples.

Results

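The end of hind limb suspension was set against the days of reloading that followed, in the left plantaris of the mouse. The members were the genes whose level at the end of suspension lay outside the range of all 6 later arrays. They were chosen by their own values from the genes with a single symbol whose level reached the median of the array on every array, without olfactory and vomeronasal receptors, predicted genes, clones and small RNAs. Of 19938 genes with a single symbol, 10058 met these terms, and 4654 of them were members. At d0, 3920 genes (39.0%) lay below all 6 later arrays and 734 (7.30%) above them. Since the values of d0 chose these genes, the differences of d0 are a description and carry no test. Most of what follows is about the members that also differed from the mean of the later arrays by more than 1.5-fold, of which 110 (1.09% of the genes tested) were lower at d0 and 16 (0.159%) were higher. Past 2-fold, 15 (0.149%) were lower and 4 (0.0398%) higher.

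The animals were male C57BL/6J mice aged 5 months, and all groups had been through 2 weeks of suspension of the hind limbs. Muscle was taken at d0, the labelled control, straight after suspension, and on 6 days of regrowth, namely d1, d3, d5, d7, d10 and last d14. Each time point was 1 Affymetrix Mouse Gene 1.0 ST array with the pooled RNA of 6 animals, so the spread between animals cannot be seen and no value here has a replicate error. With 1 array against 6, the smallest p that an exact permutation test allows is 0.143. Muscle that was never suspended was not analysed here, so d0 is an unloaded state and not a normal one.

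The plantaris is a calf muscle of mostly fast fibres that helps to extend the ankle. When a hind limb is kept off the ground, muscle fibres lose protein and shrink, and slow and oxidative features tend to be lost. On reloading, mechanical strain is read at the Z-discs, at titin and at the costameres that tie the fibre to its matrix. Chaperones, contractile proteins, collagen and new vessels are then made while the fibre grows back. Unloading is also known for raised glucocorticoid signalling and for the ubiquitin ligases and growth brakes of the FoxO pathway.

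All differences are d0 minus the mean of the 6 later arrays on the log2 scale of the deposited intensities, and a fold is the ratio of the linear values that this difference stands for. The array medians lay between 128.1 and 131.8, yet the d0 array differed from the rest in a broad way. Over the 10058 genes tested the median difference was -0.07, and 74.0% of them lay below the mean of the later arrays. The receptor genes that were left out went the other way, with a median of 0.54 over 1194 genes, of which 986 lay above all 6 later arrays and 7 below. Counts of genes below all later arrays are therefore to be read against 39.0%, and counts above them against 7.30%. When every array was given the same median over the genes tested, the median difference moved to 0.04. The 126 genes past 1.5-fold, 87.3% of them lower at d0, then became 61 lower and 29 higher, or 67.8% lower. All 61 and all 16 of the main higher genes were kept under that scaling. Of any size, 1775 of the 10058 genes lay below all later arrays with equal array medians and 2786 above. After quantile normalization these counts were 3538 and 1030. List counts given below for either scaling are to be read against these. What part the shift of the d0 array had in any count was not tested.

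The labelled tissue was borne out by its markers. All 8 muscle fibre markers (Acta1, Ckm, Mb, Myh4, Myh1, Tnnt3, Atp2a1 and Pvalb) stood between percentile 99.5 and percentile 99.9 of all rows at d0, and their summed intensity of 133458 lay within the 126583 to 134632 of the later days. None of the 3 T cell markers and neither of the 2 bone markers reached the array median on every array. Markers of other cells did reach it, among them all 8 of macrophages, 3 of 6 of neutrophils and 1 of 3 of B cells.

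**Figure D1:**
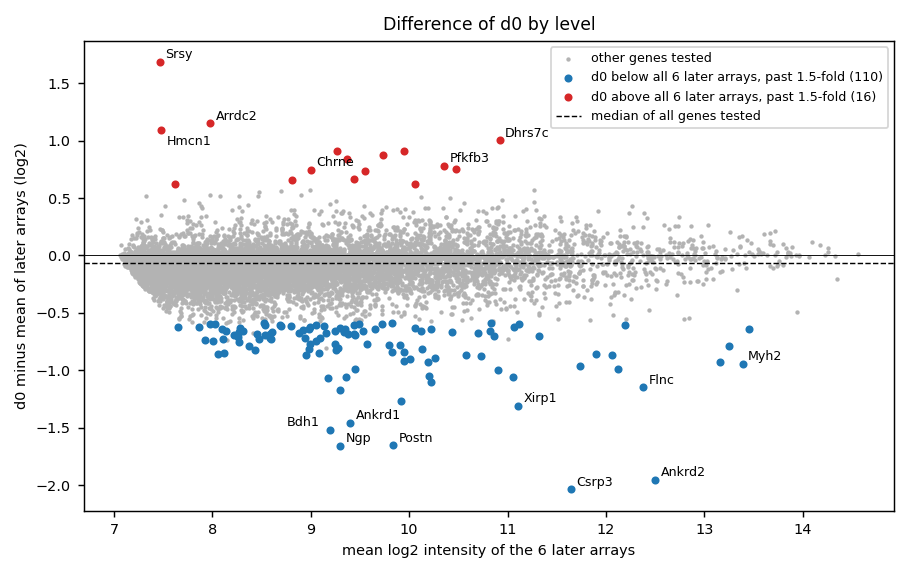
Each point is 1 of the 10058 genes tested, placed by its mean log2 intensity over the 6 later arrays (horizontal) and by d0 minus that mean (vertical, log2); blue and red points lie outside the range of the later arrays and past 1.5-fold. The 110 low genes outnumber the 16 high ones, and the dashed line at -0.07 is the median of all genes tested.

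The lower members past 1.5-fold were spread over the range of levels, with a median later level of 9.34 against 8.58 over all genes tested. Only 1 of the 110 fell in the lowest of 5 equal groups by level, against 14, 18, 39 and 38 in the next ones. The share of genes below all later arrays was 41.7%, 43.6%, 41.7%, 37.0% and 30.9% from the lowest to the highest group, and the share above them was 3.28%, 4.43%, 5.02%, 7.81% and 15.95%. High levels thus went with fewer low members of any size. The counts past 1.5-fold are limited at low levels by the filter, since d0 itself had to reach the array median. The lowest group held later means of 7.07 to 7.74, which left little room for a d0 that is 1.5-fold lower. These counts therefore do not show that large differences went with level.

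The 2 largest differences belonged to genes of strain sensing at the Z-disc. Of the 20 stretch and load responsive genes tested, 15 lay below all later arrays at d0 and 2 above, 8 of the 15 past 1.5-fold, with a list median of -0.37. With equal array medians 10 lay below and 3 above, with a median of -0.27. Csrp3, a LIM protein that binds Z-disc components, had a log2 level of 9.61 at d0 and of 12.72, 12.22, 11.77, 11.35, 11.07 and 10.71 on d1 to d14. No later array came within 1 unit of d0, and the mean of the later arrays was 4.09-fold higher (-2.03). Ankrd2, an ankyrin repeat protein bound to titin, stood at 10.55 against 13.31, 12.92, 12.46, 12.30, 12.12 and 11.90 (-1.95). Its relative Ankrd1 stood at 7.95 against 11.55, 10.07, 9.40, 8.53, 8.53 and 8.33 (-1.46). These genes were highest on d1 and came nearest to d0 on d14. By then d0 minus d14 was -0.38 for Ankrd1, but -1.11 for Csrp3 and -1.35 for Ankrd2.

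Xirp1, an actin-binding protein of growing and repairing myofibrils, was at 9.80 at d0 and at 12.70, 11.40, 10.88, 10.77, 10.52 and 10.36 later (-1.31). Flnc, the muscle filamin that crosslinks actin at the Z-disc, was at 11.23 against 13.35, 12.44, 12.10, 12.18, 12.15 and 12.05 (-1.15). After the d1 peak Flnc lay between 12.05 and 12.44, and it came nearest to d0 on d14. Abra, an actin-binding activator of serum response factor, stood at 11.14 against 12.79, 12.26, 12.08, 11.995, 11.77 and 11.82 (-0.98). Pdlim1, a PDZ and LIM adaptor of the actin cytoskeleton, stood at 10.78 against 12.04, 11.71, 11.71, 11.68, 11.87 and 11.42 (-0.96). Ppp1r27, a small ankyrin repeat protein that binds dysferlin, stood at 9.90 against 11.19, 11.04, 11.01, 10.72, 10.78 and 10.67 (-0.998). In each of these 5 genes d0 and the later arrays were apart by more than the steps between one later day and the next, the d1 to d3 step of Xirp1 and Flnc aside.

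The list was not uniform. Tcap and Myoz1, both Z-disc proteins, lay slightly above all later arrays at d0, and the inside members included cardiac actin, Actc1, whose 10.27 at d0 fell between the 10.26, 10.63, 11.23, 11.87, 11.13 and 10.89 of the later days. Xirp2 also lay inside, at 12.96 against a later range of 12.93 to 13.21.

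**Figure D2:**
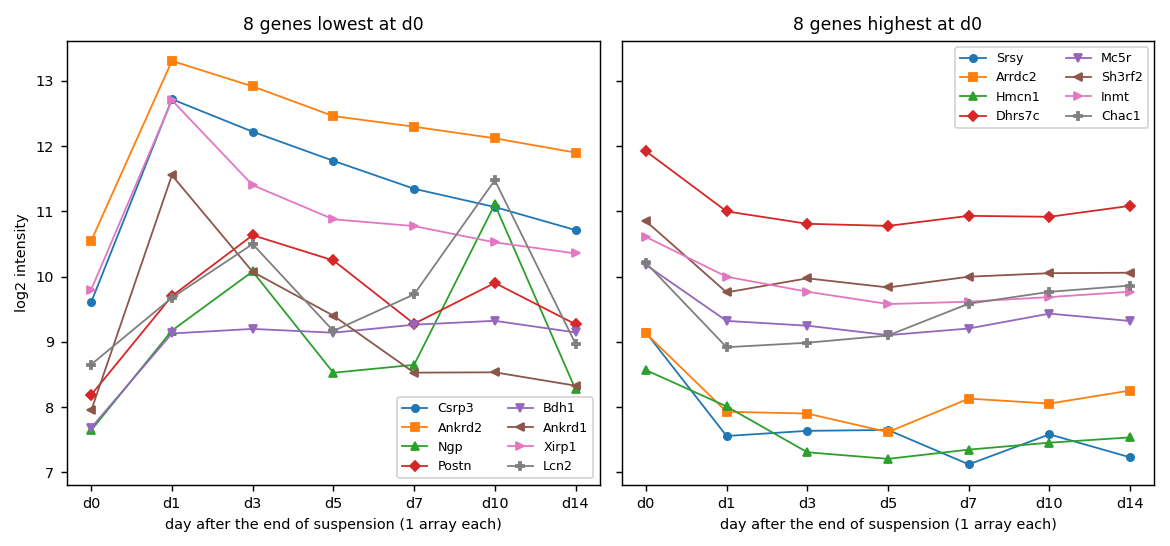
Log2 intensity (vertical) of the 8 lowest and the 8 highest members on each of the 7 arrays (horizontal, days not to scale, 1 pooled array each). Csrp3, Ankrd2, Ankrd1 and Xirp1 peak on d1 and come down, Bdh1 stays flat after d1, Ngp and Lcn2 peak on d10, and most of the high genes drop between d0 and d1 and stay down.

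Of 20 heat shock and chaperone genes tested, 18 lay below all later arrays, 7 of them past 1.5-fold, and none above, with a median of -0.37. The count with equal array medians was 13 below and none above, with a median of -0.27. Hspa1a, an inducible Hsp70, stood at 8.13 at d0 and at 10.44, 9.38, 9.18, 9.06, 9.06 and 8.69 later (-1.17). Hspa1l, a related Hsp70 gene, stood at 9.996 against 10.85, 10.98, 11.14, 11.08, 11.16 and 11.09 (-1.05). Hspa1a has a near-identical copy, Hspa1b, which can share its probes, so its row is uncertain. Hspa1a peaked on d1 and came down, while Hspa1l was level from d1 on.

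Chordc1, a co-chaperone of Hsp90, stood at 9.15 against 10.44, 10.23, 10.27, 9.91, 10.34 and 10.03 (-1.05), and was 2.07-fold higher later. Hsph1, the Hsp110 nucleotide exchange factor, stood at 8.46 against 10.22, 9.67, 9.38, 9.26, 9.11 and 9.07 (-0.99). Hspb7, a small heat shock protein of muscle, stood at 12.23 against 13.58, 13.35, 13.04, 13.04, 13.04 and 12.91 (-0.93). The later arrays of these 3 genes all lay clear of d0. Hspe1, the mitochondrial co-chaperonin, and Hspa5, the main chaperone of the endoplasmic reticulum, were the members inside the range. Hspe1 had 10.49 at d0 between later values of 10.46 to 11.32, and Hspa5 had 10.74 between 10.62 to 11.44.

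Among the promoters of the low members, those of Chordc1 and Hsph1 held the heat shock element, searched on both strands as GAA, TTC and GAA with 2 free bases between each, and they are shown because these 2 chaperone genes were about 2-fold lower at d0. The sequences are from RefSeq with the GRCm38.p6 build, 250 bases before to 50 bases after the start of the gene, and the capitals mark the matches. Chordc1 lies at chr9:18292017-18292316 on the plus strand and holds 3 matches that overlap each other. Hsph1 lies at chr5:149636287-149636586 on the minus strand, with 1 match.
Chordc1: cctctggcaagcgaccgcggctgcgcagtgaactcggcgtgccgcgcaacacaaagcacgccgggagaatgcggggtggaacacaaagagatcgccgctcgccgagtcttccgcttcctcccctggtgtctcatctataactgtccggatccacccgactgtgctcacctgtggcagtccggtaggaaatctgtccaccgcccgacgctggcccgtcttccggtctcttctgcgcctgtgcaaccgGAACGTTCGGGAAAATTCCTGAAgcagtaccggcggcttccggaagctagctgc
Hsph1: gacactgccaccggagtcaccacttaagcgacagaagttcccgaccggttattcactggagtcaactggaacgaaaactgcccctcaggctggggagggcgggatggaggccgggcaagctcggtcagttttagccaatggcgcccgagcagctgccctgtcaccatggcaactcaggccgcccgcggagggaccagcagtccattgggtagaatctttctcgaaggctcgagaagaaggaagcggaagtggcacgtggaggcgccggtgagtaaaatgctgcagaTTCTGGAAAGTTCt
The matches of Chordc1 start at bases -4, 2 and 7 from the gene start, and that of Hsph1 starts at base 37. The second promoter that the table lists for Hsph1 overlaps the first and holds the same match. A match of letters is not a measured binding site.

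Slow fibre genes were low at d0 as a group. Of 13 slow fibre contractile genes tested, 9 lay below all later arrays, 6 of them past 1.5-fold, and none above, with a median of -0.56. With equal array medians 8 lay below and none above, with a median of -0.45. Myl2, the slow regulatory light chain, stood at 9.13 at d0 and at 9.55, 10.33, 10.48, 10.26, 10.67 and 10.07 on d1 to d14 (-1.10). Myl3, the slow essential light chain, stood at 9.03 against 9.28, 10.05, 9.97, 10.07, 10.33 and 9.99 (-0.92). Both were closest to d0 on d1 and highest on d10, unlike the strain-sensing genes, which were highest on d1. Casq2, the calsequestrin of slow and cardiac fibres, stood at 8.08 against 8.82, 9.46, 9.29, 8.82, 8.82 and 8.47 (-0.87). Myoz2, the calsarcin of slow fibres, stood at 11.04 against 11.60, 11.99, 12.12, 11.89, 11.94 and 11.89 (-0.86). Tnni1 and Tnnc1, slow troponins, were the largest differences inside the range. Tnni1 had 8.90 at d0 against 9.67, 10.15, 9.52, 9.07, 9.63 and 8.72, with d14 alone below d0. Tnnc1 had 8.13 against 8.58, 9.40, 8.52, 8.13, 8.86 and 8.19, with d7 at the level of d0.

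Fast fibre genes split between myosin IIa and the rest. Of 15 fast fibre genes tested, 1 lay below all later arrays and 7 above, none of the 7 past 1.5-fold, with a median of 0.06. Those given with values here were in the highest of the 5 level groups, where 15.95% of all genes lay above. The one below was Myh2, the IIa myosin heavy chain of fast oxidative fibres, at 12.45 against 13.01, 13.53, 13.41, 13.46, 13.52 and 13.41 (-0.94). The 7 above were small shifts of genes of the fastest fibres. Actn3, the fast alpha-actinin, stood at 13.93 against later values of 13.64 to 13.81 (0.21), Tnnc2, the fast troponin C, at 13.86 against 13.61 to 13.76 (0.19), and Mybpc2, fast myosin-binding protein C, at 13.56 against 13.23 to 13.48 (0.17). Myh4, the IIb heavy chain, stood at 13.90 against 13.78 to 13.88 (0.07), and Myh1, the IIx chain, lay inside the range at 13.33 against 13.33 to 13.51. The list's count moved to 11 above with equal array medians and to 5 above and 4 below after quantile normalization.

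The promoters of Myl3 and of Lmcd1 held a CArG box, the site bound by serum response factor, and are shown because these 2 muscle genes stood among the low members. Lmcd1, a LIM protein of muscle, is outside the naming rule and was picked after its values were seen. It stood at 11.20 against 13.01, 12.15, 11.92, 12.01, 11.72 and 11.58 (-0.86). Myl3 lies at chr9:110763428-110763727 and Lmcd1 at chr6:112273508-112273807, both on the plus strand of GRCm38.p6, again from RefSeq with the match in capitals.
Myl3: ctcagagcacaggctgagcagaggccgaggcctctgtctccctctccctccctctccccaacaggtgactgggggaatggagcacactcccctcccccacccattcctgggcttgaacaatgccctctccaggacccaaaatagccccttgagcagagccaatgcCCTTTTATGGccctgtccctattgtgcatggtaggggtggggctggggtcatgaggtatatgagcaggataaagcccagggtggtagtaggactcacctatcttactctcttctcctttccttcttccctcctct
Lmcd1: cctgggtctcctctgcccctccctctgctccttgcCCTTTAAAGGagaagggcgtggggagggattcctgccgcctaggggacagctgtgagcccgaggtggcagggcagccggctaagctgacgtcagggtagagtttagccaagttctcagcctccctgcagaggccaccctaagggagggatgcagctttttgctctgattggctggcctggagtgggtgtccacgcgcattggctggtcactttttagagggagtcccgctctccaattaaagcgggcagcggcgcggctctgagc
The match of Myl3 starts at base -85 from the gene start and that of Lmcd1 at base -215. Myl3 was highest on d10 and Lmcd1 on d1. Of the 3 promoters of low members with this box, 2 belonged to genes farthest from d0 on d1 or d3. The pair shown was chosen, so it says nothing of the courses of genes with the box.

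Over all members past 1.5-fold, 86 of the 110 low genes matched 114 promoters of the table and 12 of the 16 high genes matched 18. The heat shock element was found in 3 of the 114 (2.63%), in 0.459% of the 10462 promoters of the genes tested and in 0.603% of all 32851, and 2 of these 3 were the overlapping entries of Hsph1. The CArG box was found in 3 of the 114 (2.63%) against 1.39% for the genes tested and 1.63% of all, and the MEF2 site in 6 (5.26%) against 1.45% and 1.86%. The MEF2 matches were those of Casq2, Myoz2, Atf3, Alas1, Cyp2e1 and Myom3. The estrogen-related receptor motif AAGGTCA was found in none of the 114 and in 3.18% of the promoters of the genes tested (4.72% of all). The glucocorticoid response element ACANNNTGT was found in none of the 18 promoters of the high genes and in 3.87% of those of the genes tested (6.85% of all). Promoters of the low genes had a median GC content of 60.2%, close to the 61.2% of the genes tested, whereas the table as a whole had 52.7%. Only this window was searched, on both strands, so these shares say nothing of sites elsewhere.

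Connective tissue genes were low at d0 as well. Of 28 fibrillar collagen and matrix genes tested, 23 lay below all later arrays, 10 of them past 1.5-fold, and 1 above, with a median of -0.50. With equal array medians 17 lay below and 1 above, with a median of -0.40. Postn, a matricellular protein of remodelling connective tissue, stood at 8.19 at d0 and at 9.70, 10.63, 10.25, 9.28, 9.90 and 9.27 later (-1.65). Its highest days were d3 and d5, and on its lowest later day, d14, the difference was still -1.08. Col1a1, the main chain of fibrillar collagen, stood at 9.37 against 9.49, 10.12, 10.38, 10.44, 10.70 and 10.45 (-0.89). For Col1a1 d0 minus d1 was only -0.12, and d0 minus d10 was -1.33. Fn1, fibronectin, stood at 10.16 against 10.50, 10.95, 10.85, 10.84, 11.32 and 10.73 (-0.70), and Bgn, biglycan, at 10.62 against 11.19, 11.61, 11.49, 11.22, 11.31 and 11.07 (-0.70). The 1 gene above was decorin, Dcn, a small proteoglycan, at 13.47 at d0 against 13.24 to 13.28. Col12a1 and Lox, which crosslinks collagen, lay inside the range.

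Of 17 basement membrane genes tested, 15 lay below all later arrays, none past 1.5-fold, and none above, with a median of -0.28. The count below was 10 and the median -0.17 with equal array medians. The collagen IV chains stood side by side. Col4a1 stood at 7.92 at d0 and at 8.40 to 8.49 later (-0.52), and Col4a2 at 7.91 and 8.37 to 8.51 (-0.51). Sparc, a collagen-binding matrix protein, stood at 12.30 against 12.68 to 12.98 (-0.55), and Col15a1 at 8.05 against 8.34 to 8.72 (-0.53). Col4a3 and Agrn, agrin of the endplate, were the 2 genes inside, with differences of -0.02 each. Among 19 integrin and costamere genes 11 lay below and 2 above, with a median of -0.18, and with equal array medians 8 lay below and 4 above. Itga5, a fibronectin receptor chain, stood at 7.77 against 8.73, 8.64, 8.38, 8.36, 8.39 and 8.22 (-0.68). Itga6, a laminin receptor chain, stood at 8.89 against 9.41 to 9.65 (-0.60), and Vcl, vinculin, at 9.55 against 9.85 to 10.47 (-0.43). Itga7, the main laminin receptor chain of the fibre, lay inside at 8.88 against 8.80 to 9.34.

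In a whole muscle, fewer cells of a type and less RNA per cell cannot be told apart, and this holds for every marker below. The 5 endothelial markers all lay below the later arrays, and their summed intensity was 3748 at d0 against 4570 to 5009. In the wider endothelial list 11 of 17 lay below and none above, with a median of -0.21, or 7 below and 1 above with equal array medians. Kdr, the main receptor of VEGF, stood at 8.66 at d0 and at 9.41, 9.19, 9.27, 9.30, 9.30 and 9.30 later (-0.63), with the later arrays nearly level. Aplnr, the apelin receptor, stood at 7.93 against 8.25, 8.83, 8.56, 8.55, 8.45 and 8.50 (-0.59), and Vegfa, the ligand made by the fibres, at 10.36 against 10.71 to 10.86 (-0.43).

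The 5 fibroblast markers went both ways. Lum, Col1a1 and Col3a1 lay below all later arrays and Dcn and Pdgfra above, with a summed intensity of 13413 at d0 against 12271 to 13399. The sum is mostly Dcn, so it does not show the level of the other markers. Of the 8 macrophage markers 2 lay below, and their sum of 3847 lay inside the later range of 3422 to 5901. C1qc, a complement chain, stood at 8.08 against 8.71, 8.96, 8.77, 8.60, 8.75 and 8.38 (-0.62). Cd68 lay inside, at 8.35 at d0 against 10.39, 10.06, 9.48, 8.26, 8.75 and 7.98, with d7 and d14 under d0. The adipocyte markers had a sum of 770 at d0 against 866 to 1091, and all 4 lay below, of which Lep was under the array median. In the wider adipocyte list 7 of 13 lay below and 1 above, or 5 below and 3 above with equal array medians.

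Neutrophil genes differed widely between the later days. Of the 6 markers 3 reached the array median on every array, and the sum over the 6 was 1084 at d0 against 1380 to 7643. Ngp, a granule protein, stood at 7.64 at d0 and at 9.17, 10.08, 8.53, 8.65, 11.11 and 8.27 later (-1.66). Lcn2, lipocalin of the granules, stood at 8.65 against 9.68, 10.50, 9.17, 9.73, 11.48 and 8.97 (-1.27). Both were highest on d10 and came nearest to d0 on d14, and S100a9 was below d0 on d14 (7.36 against 7.42). Some markers of other cells were high on d10 too. Slc4a1, of red cells, stood at 8.24 at d0 and at 8.63, 9.06, 8.34, 8.52, 9.49 and 8.32 later. Ibsp, of bone, was 8.30 on d10 and at most 6.25 on any other array, below the array median there. Acp5, of osteoclasts and macrophages, was 8.50 on d10 and 7.74 to 8.08 on the other later days. Ctsk, also of the bone list, differed by -0.16 without d10 and by -0.26 to -0.32 without any other single later array. The 3 B cell markers were highest on d10 too, of which only Cd79b reached the array median on every array. The red cell marker Alas2 and the bone marker Sp7 were not high on d10. Alas2, of red cells, had 10.36 on d10, inside the 9.79 to 10.46 of the later days, and 10.54 at d0. Sp7, of bone and below the array median, had 6.43 on d10 as on d5, d7 and d14. The part of these cells in the neutrophil values was not tested. Without the d10 array the low members past 1.5-fold numbered 106 in place of 110.

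The tested genes of ketone body use were low at d0. The list had 5 genes on the array, and the 1 that missed the level filter lay above all later arrays. All 4 that were tested lay below all later arrays under the deposited scaling, equal array medians and quantile normalization, with a median of -0.49. Bdh1, the mitochondrial enzyme that starts the breakdown of hydroxybutyrate, stood at 7.68 at d0 and at 9.13, 9.20, 9.14, 9.26, 9.32 and 9.14 on d1 to d14 (-1.52). It was 2.86-fold higher on the later days, which differed by no more than 0.19 among themselves. Slc16a1, the monocarboxylate carrier, stood at 9.93 against 10.23 to 10.76 (-0.51), and Oxct1, which activates ketone bodies, at 10.07 against 10.24 to 10.78 (-0.48). Acat1, the thiolase, stood at 11.34 against 11.49 to 11.68 (-0.26).

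Of 18 PGC-1 and mitochondrial regulators 11 lay below and 1 above, with a median of -0.15, but with equal array medians 6 lay below and 4 above. Ppara, the fatty acid receptor, stood at 7.98 against 8.45 to 8.53 (-0.49), and Esrrg, an estrogen-related receptor of oxidative fibres, at 8.48 against 8.82 to 9.0003 (-0.44). Of 36 oxidative phosphorylation genes 4 lay below all later arrays and none above, with a median of -0.09, near the -0.07 of all genes. With equal array medians none lay below and 4 above, and the list median of 0.02 was again near that of all genes, 0.04. Of 21 genes of fatty acid use 6 lay below and 1 above, with a median of -0.15, but with equal array medians 1 lay below and 3 above (-0.04). Fabp3, the fatty acid carrier of oxidative muscle, stood at 11.60 against 11.79, 12.06, 12.45, 12.31, 12.33 and 12.26 (-0.60). Ucp3, the mitochondrial uncoupling protein of muscle, was the one above, at 10.12 against 9.38 to 10.06 (0.40).

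Single genes of growth and stress were among the 24 lowest. Ccnd1, cyclin D1 of the G1 phase, stood at 8.11 at d0 and at 9.73, 9.18, 9.08, 9.19, 9.08 and 8.81 later (-1.07). Atf3, a stress-induced transcription factor, stood at 8.30 against 11.40, 9.33, 9.09, 8.95, 8.67 and 8.73 (-1.06), and its difference shrank to -0.65 without the d1 array. Tfrc, the transferrin receptor for iron uptake, stood at 9.27 against 9.98, 10.53, 10.46, 10.32, 10.10 and 9.77 (-0.92). Clu, the secreted chaperone clusterin, stood at 9.11 against 9.92, 10.41, 10.18, 10.02, 9.87 and 9.67 (-0.90). Tfrc and Clu shared a peak on d3 and were lower on each of the days after it.

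The medians of the protein synthesis and breakdown lists lay between -0.08 and 0.00, against -0.07 for all genes. Of 24 ribosomal protein genes 5 lay below and 3 above (median 0.00), of 20 translation factors 3 below and 1 above (-0.04), of 22 ribosome biogenesis genes 7 below and none above (-0.08), and of 29 proteasome genes 11 below and 1 above (-0.05). Each of these medians was above 0 with equal array medians, as was the 0.04 of all genes. In the IGF and insulin axis 5 of 19 lay below and 3 above, or 4 below and 7 above with equal array medians. Igf1 stood at 8.87 at d0 against 9.10 to 9.48 (-0.43), and Irs1, the insulin receptor substrate, at 9.08 against 9.41 to 9.90 (-0.51). Igfbp5, a binding protein that fibres secrete, was on the other side, at 11.85 against 11.002 to 11.48 (0.57).

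Genes high at d0 were fewer, and of the 44 gene lists that of glucocorticoid targets held the most of them. Of 19 tested, 11 lay above all later arrays and 2 below, with a median of 0.16. With equal array medians 15 lay above and 1 below (0.26), and after quantile normalization 12 above and 2 below (0.17). Arrdc2, an alpha-arrestin, stood at 9.13 at d0 and at 7.93, 7.90, 7.62, 8.13, 8.05 and 8.25 later (1.15). Ddit4, which restrains mTOR, stood at 8.24 against 7.58, 7.75, 7.54, 7.66, 7.55 and 7.63 (0.62). Sgk1, a kinase induced by steroids, stood at 10.36 against 9.75, 10.01, 10.02, 10.05, 10.02 and 9.93 (0.40). The clock gene Per1, also a target of the receptor, stood at 9.20 against 8.91, 8.91, 8.47, 8.86, 8.86 and 8.78 (0.40). In Ddit4, Sgk1 and Per1 d14 was no closer to d0 than d3 was, while Arrdc2 came nearest to d0 on d14. The 2 genes below were Zbtb16, at 9.91 against 10.28 to 10.59 (-0.51), and Dusp1. Mt1 and Mt2, metallothioneins, lay inside the range with d0 toward its low end. Per1 is also a gene of the clock, where 4 of 17 lay above and 1 below, or 11 above and none below with equal array medians. The hour at which muscle was taken is not given in the labels, and its part in these values was not tested.

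Of 20 atrophy and FoxO genes 5 lay above and 3 below, with a median of -0.01, which became 11 above, 1 below and 0.10 with equal array medians. Fbxo32, the ubiquitin ligase atrogin-1, stood at 11.69 at d0 and at 11.49, 11.15, 10.84, 11.28, 11.42 and 11.56 later (0.40), lowest on d5 and within 0.13 of d0 on d14. Asb2, a ubiquitin ligase subunit, stood at 12.09 against 11.72, 11.91, 11.69, 11.96, 11.94 and 12.05 (0.21). The list also holds Ddit4, named above, and Mstn, Trim63, Foxo1 and Foxo3, which all lay inside the range.

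Other high genes belonged to fuel use and to the membrane. Dhrs7c, a dehydrogenase of the sarcoplasmic reticulum, stood at 11.92 against 10.9997, 10.81, 10.78, 10.93, 10.92 and 11.08 (1.002), 2.00-fold above the later mean. Pfkfb3, which makes the activator of phosphofructokinase, stood at 11.14 against 10.36, 10.22, 10.34, 10.25, 10.51 and 10.44 (0.78). Gpt2, the mitochondrial alanine aminotransferase, stood at 11.22 against 10.27, 10.50, 10.38, 10.50, 10.50 and 10.68 (0.75). The later days spanned 0.31 in Dhrs7c, 0.29 in Pfkfb3 and 0.41 in Gpt2, which came nearest to d0 on d14. Among 20 genes of glycolysis and glycogen 8 lay above and 3 below, with a median of 0.04. Those given with values here were also in the highest of the 5 level groups, with 15.95% of all genes above. Gpd1, the cytosolic glycerol phosphate dehydrogenase, stood at 12.70 against 11.94 to 12.49 (0.43), while Hk2, hexokinase II, lay below at 10.25 against 10.39 to 10.97 (-0.39).

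Chrne, the adult subunit of the acetylcholine receptor, stood at 9.74 at d0 and at 8.71, 8.72, 9.08, 9.26, 9.09 and 9.14 later (0.74). In the endplate and denervation list it was the 1 gene above of 14 tested, with 4 below, or 2 above and 1 below with equal array medians. Those 4 included Runx1 (-0.47) and Gadd45a (-0.31), which both respond to denervation. Both differences were smaller without the d1 array, at -0.24 and -0.06. Gadd45a was 9.15 on d1 and between 7.65 and 7.70 on the other later days, close to its 7.62 at d0. Gadd45g, its relative, went the other way, at 10.11 against 9.13, 9.39, 9.35, 9.70, 9.52 and 9.55 (0.67). Chac1, an enzyme that degrades glutathione, stood at 10.21 against 8.92, 8.99, 9.10, 9.59, 9.77 and 9.86 (0.84), and came closer to d0 with each later day. The 14 ATF4 stress genes, to which Chac1 and Ddit4 belong, had 3 above and 6 below, or 5 above and 4 below with equal array medians.

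Sh3rf2, a RING finger protein, stood at 10.85 against 9.76 to 10.06 (0.91), and Mc5r, a melanocortin receptor, at 10.18 against 9.10 to 9.43 (0.91). Inmt, an amine methyltransferase, stood at 10.61 against 9.58 to 9.998 (0.87). Cntfr, the receptor chain for ciliary neurotrophic factor, stood at 9.46 against 8.68 to 8.85 (0.65), and Nyx at 10.29 against 9.42 to 9.62 (0.74). Hmcn1, hemicentin, stood at 8.57 against 7.21 to 8.01 (1.09), and Bpnt2, a Golgi phosphatase, at 10.68 against 9.80 to 10.43 (0.62). Srsy, a gene family of the Y chromosome known from testis, had the largest difference at 9.15 against 7.12 to 7.65 (1.68). It belongs to a family of near-identical copies, which makes its row uncertain. Whether it moved with the receptor genes that were high at d0 was not tested.

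**Figure D3:**
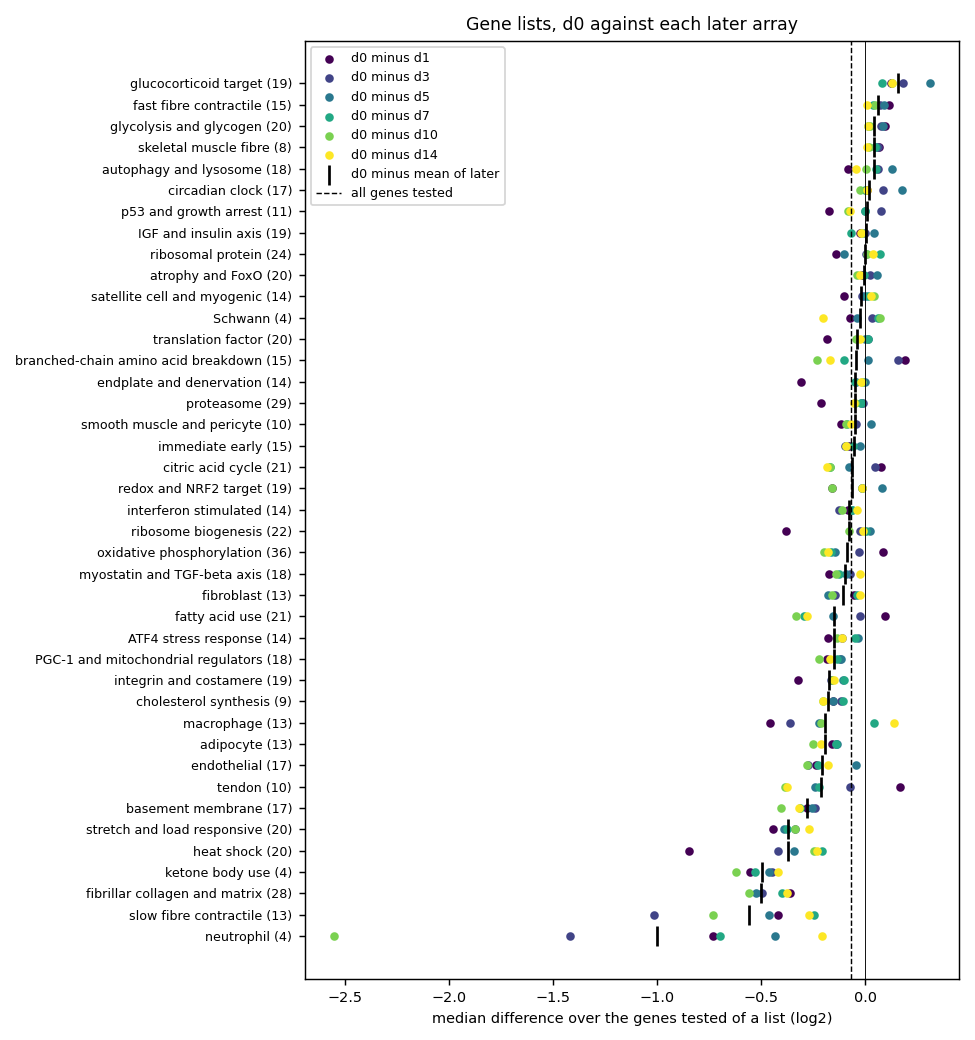
Each row is a gene list with its number of genes tested; points give the median of d0 minus each later array and the bar the median of d0 minus the mean of the later arrays (horizontal, log2). Glucocorticoid targets lie highest at 0.16, slow fibre, matrix, heat shock and stretch genes lie well left of the dashed line at -0.07 for all genes tested, and the 4 neutrophil genes spread the most.

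The differences of d0 were not of one course. A member was called level when the range of its later arrays was at most 0.5 of its difference from d0, and otherwise early, middle or late by whether the later array farthest from d0 was d1 or d3, d5 or d7, or d10 or d14. Of the 110 low members 65 were early, 21 level, 17 late and 7 middle. For 58 of them d1 was the farthest day and for 25 d10, while d14 was the farthest for none. The median of d0 minus each day shrank from -0.88 on d1 to -0.80, -0.73, -0.65, -0.72 and -0.56 on d3, d5, d7, d10 and d14. In the 21 level genes the range of the later days was small beside the distance from d0. They included Bdh1, Hspa1l, Kdr, Itga6, Serpinh1, a collagen chaperone, and Actn2, an alpha-actinin of the Z-disc. Level does not mean constant, since Actn2 went from 13.56 on d1 and 13.59 on d3 to 13.30 on d14, against 12.81 at d0. The late ones included Col1a1, Fn1, Ngp and Lcn2.

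Of the 16 high members 9 were level, 5 early, 2 middle and none late. Their median above each day went from 0.89 on d1 to 0.90, 0.93, 0.78, 0.73 and 0.72. The level ones were Srsy, Dhrs7c, Mc5r, Sh3rf2, Inmt, Pfkfb3, Nyx, Cntfr and Ddit4.

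**Figure D4:**
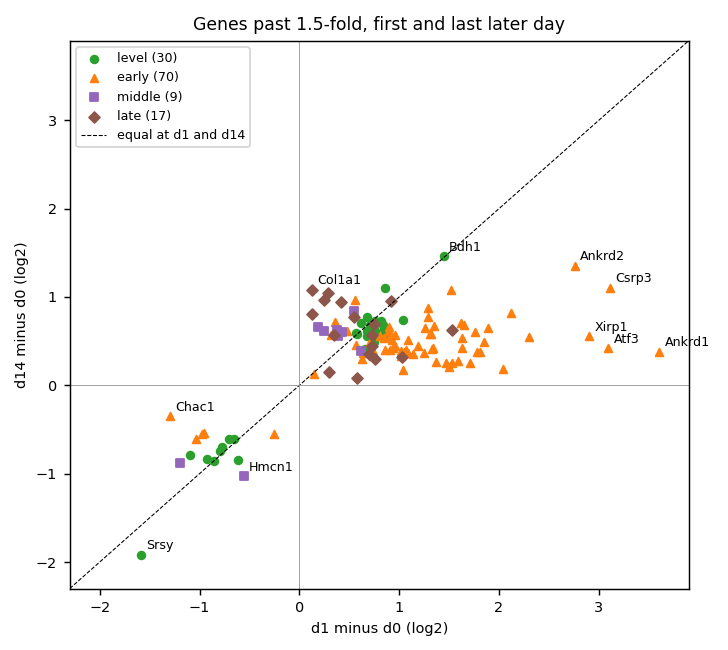
Each of the 126 members past 1.5-fold is placed by d1 minus d0 (horizontal, log2) and d14 minus d0 (vertical, log2), with its course as the symbol and the dashed line where d1 and d14 are equal. Csrp3, Ankrd2, Xirp1, Atf3 and Ankrd1 lie far right and below the line, Bdh1 lies on it, and Col1a1 lies above it.

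The slope over the 6 later days was fitted to the same later arrays that helped to choose the members. The rule used their levels but not their order, and d0 did not enter the fit. A high d1 value both helped a gene to pass 1.5-fold and gave a slope toward d0. Without d1, 23 low members no longer passed, and without d14 it was 0. The slopes of the members are thus not independent of the choice. The slope was fitted with limma on log2(day + 1) over all 10058 genes and adjusted by Benjamini-Hochberg, and 35 genes rose (0.348%) and 33 fell (0.328%). At an unadjusted p of 0.05 the counts were 780 and 703. Of the 110 low members 80 (72.7%) sloped toward d0, against 55.8% of the 3920 low members of any size, and 51.7% of all genes tested had a downward slope. On d14, 86 of the 110 (78.2%) were closer to d0 than on d1, against 58.6% of the 3920. Of all 110 low members, 16 fell toward d0 and 1 rose away from it at an adjusted p of 0.05, and 45 and 6 at an unadjusted one. These calls needed all 6 arrays: without d1, d3, d5, d7, d10 or d14, in that order, none of the whole table rose and 1, 2, 3, 2, 0 and 0 genes fell at that threshold.

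The calls also depend on the scale of time, since 0 genes rose and 0 fell on the day itself and 1 rose and 1 fell on the order of the days. On log2(day + 1) Csrp3 fell by 0.71 per unit of log2(day + 1) (limma, adjusted p = 0.00260), Ankrd2 by 0.50 (adjusted p = 0.00260) and Ankrd1 by 1.15 (adjusted p = 0.0349). Xirp1 and Abra fell by 0.79 and 0.34 (adjusted p = 0.0349 and 0.0349). Of the chaperones Hsph1 fell by 0.41, Hspa1a by 0.54 and Hspb7 by 0.23 (adjusted p = 0.0349, 0.0468 and 0.0420). The other 8 are named for their slopes, after these were seen. They were the small heat shock protein Hspb1, the antizyme inhibitor Azin1, the actin regulators Wdr1 and Enah, and Ttc9, Ifrd1, Rrad and Lmcd1. Neto2, an auxiliary subunit of glutamate receptors, was the 1 low member that rose, at 9.61, 9.96, 10.06, 10.38, 10.40 and 10.37 on d1 to d14 from 9.32 at d0. The slopes of Col1a1 (0.37, adjusted p = 0.0795) and Flnc (-0.41, adjusted p = 0.103) did not pass. Of the 16 high members 10 (62.5%) sloped toward d0, near the 65.9% of the 734 high members of any size, while 48.3% of all genes tested had an upward slope. None of the 16 passed after adjustment and 5 did before it. Chac1 came nearest (slope 0.37, limma adjusted p = 0.0649).

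Members near the bounds differed little from genes just outside them. Kpna6, at 10.29 at d0 against 10.29 to 10.42, was the low member nearest to the range, and Eif4b, at 11.42 against 10.89 to 11.42, the high one. Adamtsl1 lay outside the members with the same value of 7.57 on all 7 arrays. At 1.5-fold the nearest genes were Mapre2 (-0.59) and Cyp2f2 (-0.58) on the low side and Bpnt2 (0.62) and Igfbp5 (0.57) on the high side. Without d1, 23 low members no longer passed 1.5-fold, and without d3, d5, d7, d10 or d14 it was 9, 5, 5, 9 or 0. Of the genes described with values above these included Itga6 (without d1 or d10), C1qc (without d3), Aplnr (without d3, d5 or d7) and Fabp3 (without d5, d7 or d10), and on the high side Bpnt2 (without d3 or d5). Equal values between arrays were common in the deposited table. Of the genes tested 2540 (25.3%) held the same intensity on 3 or more arrays, as did 11 of the 126 members past 1.5-fold (8.73%).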

How the data were processed

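The authors deposited intensities on a linear scale, 1 value per transcript cluster and array, to 1 decimal. The submitters' processing notes name Partek. Their normalization, summarization, background correction and build are not stated in the sources used here. The log2 values were computed here from the deposited intensities, with no pseudocount (0).

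Of 35556 rows, the platform annotation held 23410, with 1 symbol for 21789 and several for 1621, and 12146 rows are unnamed here. RefSeq matched 21698 rows. Genes with several rows took the row of highest mean, which gave 19938 genes. A gene was kept at or above the array median on all 7 arrays (10481 genes), and 423 were left out by symbol. Scanner files were not used. With so few arrays, their number limits precision.

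The members and gene lists were chosen with earlier results of these data known. Named were the 24 lowest and 16 highest members, up to 4 members outside and 2 inside the range of each list, and genes nearest the bounds. Other genes are named, after their values were seen, where a count was small or for a slope or a promoter.

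The slope over the 6 later days was fitted with lmFit and eBayes (trend) of limma 3.58.1 under R 4.3.3, two-sided, with Benjamini-Hochberg adjustment. Departures from a line and differences between pools make up its error, and p-values measure only the spread between these arrays. Tested on simulated data of the 10058 genes for this slope, the fit recovered 54%, 92%, 100% and 98% of genes with a total log2 change of 0.5, 1, 2 and 3, with 7 false calls. What share the fit recovers or calls falsely on the arrays themselves was not tested. All else ran in Python 3.11.15 with pandas 2.3.3, numpy 2.4.6 and, for plots, matplotlib 3.10.9. The alternatives were other filters, scalings, thresholds, references and scales of the day, the mean of a gene's rows or of a list, and each later array left out.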

Additional observations from a re-analysis of the deposited data

Results flagged for a closer look

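A signal stood out in genes that were left out of the comparison. The 1194 olfactory and vomeronasal receptor genes had a median difference of 0.54 (log2) at d0 over the mean of the later arrays, with 986 of them (82.6%) above all 6 later arrays and 7 below. Only 14 of them reached the array median on every array. Rows that are unnamed here had a median of 0.00, with 2652 above and 2126 below.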

How the results depend on the processing

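No paired analysis was possible because each time point is 1 array. Low and high members past 1.5-fold numbered 110 and 16, and members of any size 3920 and 734. Equal array medians gave 61 and 29 past 1.5-fold and 1775 and 2786 of any size, and a filter at percentile 75 gave 61 low past 1.5-fold and 1695 low of any size, out of 4944 genes. With d14 alone as the reference 63 were low past 1.5-fold. At 2-fold the counts were 15 and 4, and at a log2 difference of 0.32 they were 740 and 102. Leaving out each later array gave 96 to 133 low and 15 to 18 high past 1.5-fold. Of the 177 named members, 175 kept their sign with equal array medians (138 on the same side of all later arrays) and all did after quantile normalization (165 on the same side). The 2 that turned were Eif3d (0.0217) and Kpna6 (0.0372).

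With equal array medians the medians of 15 of 41 lists changed sign, all from below 0 to above it, as the median of all genes did. The lists whose deposited median was larger than its SD over the later days were the myostatin and TGF-beta axis (0.00701), immediate early genes (0.0511) and interferon stimulated genes (0.0261). With the filter at percentile 75, 6 lists changed sign, of which those past that SD were cholesterol synthesis (0.0416), ATF4 stress genes (0.13) and immediate early genes (0.0089).

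The slope called 35 rising and 33 falling genes. It called 0 and 0 on the day itself, 1 and 1 on the order of the days, 117 and 146 with equal array medians, 115 and 89 after quantile normalization, and 19 rising with a filter on any array. Leaving out 1 array gave 0 rising and 0 to 3 falling genes. The causes were not tested.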
